A study of Rattus norvegicus with 8 samples.

Results

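The genes described here are 8 genes linked to androgen signalling in prostate cells, of 23174 genes tested in the ventral prostate of TRAP rats. They are Fkbp5, Tmprss2, Slc45a3, Mboat2, Camkk2, Steap4, Hoxb13 and Pmepa1, with Hoxb13 included as a partner of androgen signalling. The genes were chosen by name from the arrays' gene column, which gave 6 of the genes on 9 probes. Mboat2, listed under the older name Oact2, and Steap4, listed under its gene identifier, were found through RefSeq names, which brought the set to 8 genes on 13 probes. All 8 passed the filter on dim probes, with a Cy5 signal well above background on all 8 arrays.

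Telmisartan blocks the receptor through which angiotensin II raises blood pressure. It was given to 4 male TRAP rats (Telmisartan 302, 303, 305 and 306) at 10 mg/kg/day in their drinking water, for 12 weeks beginning at an age of 3 weeks. The controls were 4 male TRAP rats on basal diet and tap water (Control 102, 103, 104 and 106). The rats of both groups were 15 weeks old, of strain SD per the labels, and heterozygous for the transgene, so no group of TRAP rats without it enters the comparison. Each rat's ventral prostate RNA (Cy5) was hybridised on its own 2-colour Agilent array against ventral prostate of normal F344 rats aged 6 weeks (Cy3), and the dyes were never swapped. A treatment label names a dose of 2 as well as 10 mg/kg/day, and the dose of 10 is the one the series' design text gives for the arrays. The TRAP transgene places a simian virus large T antigen under a probasin promoter, which is itself driven by androgen in prostate epithelium. Values are log2 of Cy5 over Cy3, the TRAP prostate over the reference, after loess normalization within each array, so 1 unit is a 2-fold difference.

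Steroid hormones act through nuclear receptors, which wait in a complex with heat shock proteins and their cochaperones until hormone binds and then bind response elements in DNA. In prostate cells androgen signalling works together with the pioneer factor Foxa1 and with Hoxb13. In the rat ventral prostate androgen maintains the secretory epithelium, which shrinks after castration. Several of the genes described here also answer to other signals, among them glucocorticoids (Fkbp5), inflammation (Steap4) and transforming growth factor beta (Pmepa1).

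The array reads each gene through 60-base probes, and the probes that bear on the results below are shown so that the transcript stretch each one reports can be seen. Mboat2 was the single gene of the 8 whose treated and control rats did not overlap, Steap4 lay farthest above the reference, and Camkk2 gave a reference signal too dim to measure. The first probe of Mboat2 and of Steap4 is the brighter of the pair and gave the values used. Of the first Mboat2 probe the opening 30 bases are given.
Mboat2 A_44_P538086: ggtacttagaaaatgcaataaacatctcag
Mboat2 A_43_P21870: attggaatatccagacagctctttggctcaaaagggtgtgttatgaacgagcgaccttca
Steap4 A_43_P21653: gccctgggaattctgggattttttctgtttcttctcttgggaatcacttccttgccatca
Steap4 A_44_P319721: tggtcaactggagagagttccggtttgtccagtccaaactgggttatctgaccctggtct
Camkk2 A_43_P12559: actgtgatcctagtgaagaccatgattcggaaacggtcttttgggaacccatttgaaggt

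The series as a whole set the frame for these genes. In Cy5, 59.2% to 68.1% of spots were well above background in telmisartan rats and 64.7% to 76.8% in control rats, and in Cy3 48.2% to 52.6% over the 8 arrays. The arrays lay on 2 slides with 2 telmisartan and 2 control rats each, while the position on the slide was never shared by the groups, so position and treatment cannot be told apart. Luminal epithelial markers were measured for 10 of 11 genes, with a median over the reference of 0.33 after loess and 1.68 with median centring, a scaling described below. Markers of ventral prostate secretion were measured for 6 of 8, with medians of -6.37 and -4.93. Skeletal muscle markers (8 of 10 measured) had a median of -4.84 after loess (-3.56 with median centring). Of 8 seminal vesicle markers 1 was measured, at -4.19 (-2.85). Of 31 macrophage, T cell and MHC class II markers 29 were measured, 28 of them with a lower mean in telmisartan rats, and none passed the adjusted threshold. Their list mean ranged from 0.36 to 1.91 over the reference in telmisartan rats and from 0.81 to 2.07 in control rats, with the lowest value of each group in Telmisartan 302 and Control 103. In whole tissue, fewer cells of a type and less RNA per cell cannot be told apart. The labels number the samples and do not say whether tissue was pooled, so p-values measure the spread between these samples, which may be technical.

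How high the 8 genes stood against normal prostate was described first, without a test, because strain, age, transgene and dye all differ between the 2 channels. After loess, Tmprss2, Slc45a3, Mboat2 and Hoxb13 lay below the reference in all 8 rats, a state shared by 25.7% of all genes tested, and with median centring 0 of the 8 genes did, against 14.9% of all genes. Camkk2 and Steap4 lay above it in all 8 rats after loess, as did 30.8% of all genes, and with median centring 6 of the 8 did, against 60.8% of all genes. Fkbp5 and Pmepa1 had rats on both sides after loess. None of the 8 genes was more than 2-fold below the reference in every rat, against 3.29% of all genes, and none more than 2-fold above it in every rat, against 3.73%. The median of the 8 means was -0.39 after loess, beside 0.06 over all genes tested, and 0.83 with median centring, beside 0.69, so the side of all genes on which the 8 fell turned with the scaling.

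The sign of these levels depended on scaling in the bright genes. Loess sets probes of like brightness to a ratio near 0 by construction, whereas median centring takes the same amount from every probe of an array. With median centring, Fkbp5 averaged 1.03, Tmprss2 1.04, Slc45a3 0.88 and Hoxb13 0.77, all above the reference, against -0.43, -0.34, -0.54 and -0.53 after loess. Other probes of like intensity were raised too under median centring, with medians of 1.41, 1.32, 1.34 and 1.31 for the probes around those 4 genes. Each of the 4 genes thus stood lower than its neighbours in brightness. Mboat2 averaged -0.02 with median centring, beside a median of 1.24 for probes of like intensity. Steap4 averaged 2.38, beside 1.02, and so stood above its neighbours in brightness. Setting a gene against its neighbours comes close to what loess does, so these positions restate the loess sign and do not test it.

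**Figure D1:**
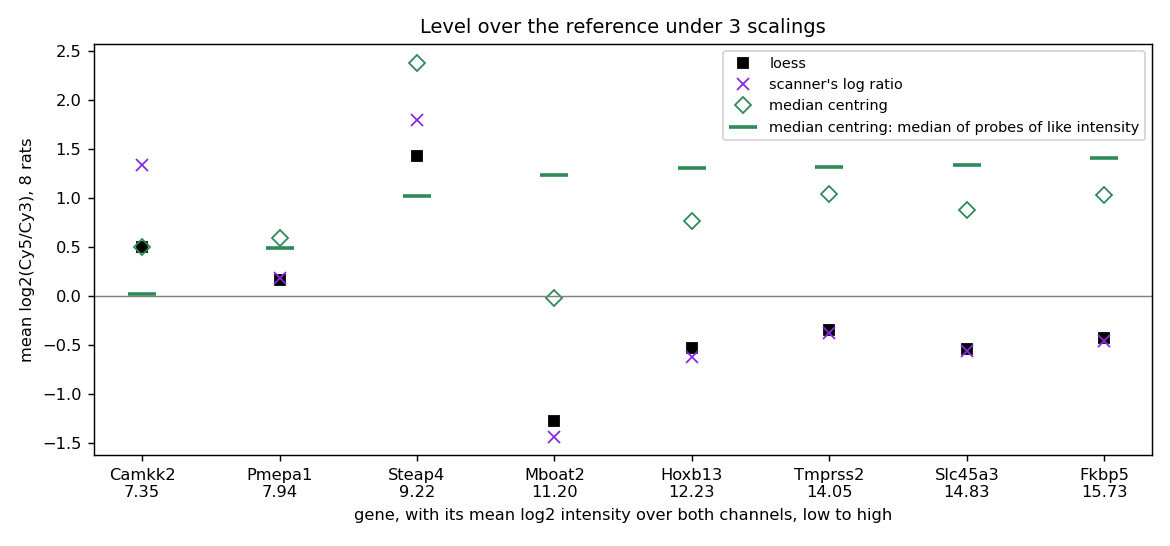
Mean log2(Cy5/Cy3) of the 8 rats for each gene, ordered from dim to bright, after loess (squares), in the scanner's own log ratio (crosses) and with median centring (diamonds), with a dash for the median of probes of like intensity under median centring. The 4 brightest genes lie below 0 after loess and above 0 with median centring, and Camkk2, Pmepa1 and Steap4 lie above 0 under all 3.

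Fkbp5 encodes a cochaperone of heat shock protein 90 in steroid receptor complexes and is itself induced by androgens and glucocorticoids. Its log2 ratio was 0.07, -0.52, -0.59 and -0.35 in Telmisartan 302, 303, 305 and 306, against -0.66, -0.11, -0.65 and -0.67 in Control 102, 103, 104 and 106. The groups overlapped, and on this probe the highest rats of each group were Telmisartan 302 and Control 103. They were also the rats of their group with the lowest immune marker mean, at 0.36 and 0.81, whose part in these values was not tested. The means were -0.35 ± 0.29 in telmisartan rats and -0.52 ± 0.27 in control rats (SD, n = 4 each). The 2 dimmer Fkbp5 probes averaged -0.96 and -0.55 over the 8 rats, and the treatment difference was 0.08 to 0.19 across the 3 probes. On the probe at -0.96 the highest telmisartan rat was Telmisartan 306, at -0.69 beside -0.77 in Telmisartan 302. On the probe at -0.55 Telmisartan 302 (-0.38) lay close to Telmisartan 306 (-0.41), and Control 103 (-0.5) to Control 104 (-0.52).

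Tmprss2, a membrane-anchored serine protease of secretory epithelium whose promoter drives the ERG fusion in human prostate cancer, had log2 ratios of -0.70, -0.03, -0.11 and -0.27 in telmisartan rats, against -0.34, -0.43, -0.56 and -0.28 in control rats. Telmisartan 302 was the lowest of all 8 rats for this gene, where it was the highest on the Fkbp5 probe used. Slc45a3 encodes prostein, a membrane protein of the sugar transporter fold found mainly in prostate. It gave -0.19, -0.65, -0.45 and -0.40 in telmisartan rats, against -0.64, -0.73, -0.60 and -0.65 in control rats. The control rats had an SD of 0.05 around a mean of -0.65, and 3 of the telmisartan rats lay above all of them. A second Slc45a3 probe averaged -0.57 ± 0.15 in telmisartan rats and -0.96 ± 0.19 in control rats (SD, n = 4 each), also with overlap.

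Mboat2, an acyltransferase that remodels membrane phospholipids, had the lowest ratio of the 8 genes to the reference. Its log2 ratio was -0.74, -1.27, -1.25 and -0.70 in telmisartan rats, against -1.78, -1.40, -1.38 and -1.62 in control rats. Every telmisartan rat stood above every control rat. Over the 8 rats Mboat2 averaged -1.27, which is 2.41-fold below the reference after loess (-0.02 with median centring), and 6 of 8 rats were more than 2-fold below. The second probe gave -0.62, -1.12, -1.0 and -0.49 in telmisartan rats, against -1.57, -1.20, -1.23 and -1.27 in control rats, and again the groups did not overlap.

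Camkk2, the calcium- and calmodulin-dependent kinase that activates AMPK and the kinases Camk1 and Camk4, gave 0.69, 1.01, 0.42 and 0.57 in telmisartan rats, against 0.16, 0.39, 0.50 and 0.24 in control rats. The groups overlapped through Telmisartan 305 and Control 104. Its reference signal was not well above background on any of the 8 arrays, so the level over the reference, 1.41-fold under the normexp correction, is uncertain. A bound was sought from channel values after loess and Aquantile scaling. The Cy3 value of each array was taken as the higher of the probe's own signal and the lowest signal of any probe well above background. Those lowest signals averaged 6.89 on the log2 scale, under the probe's own mean of 7.1. The 1.41-fold was therefore the plain ratio, and no lower bound was set. The level is open to dye bias and moved with the background correction. Its mean log2 ratio was 0.50 with normexp, 0.30 with no background correction and 1.34 in the scanner's own ratio, which fills weak spots with surrogate values.

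Steap4, a metalloreductase of iron and copper that also answers to inflammatory signals, had the highest ratio of the 8 genes to the reference. Its log2 ratio was 1.14, 1.52, 1.67 and 0.88 in telmisartan rats, against 1.95, 1.56, 1.31 and 1.42 in control rats. The groups overlapped, with the lowest 2 rats in the telmisartan group. Over all 8 rats it averaged 1.43, or 2.70-fold above the reference, 7 of 8 rats were more than 2-fold above, and the second probe averaged 1.56. The immune marker mean was also above the reference in every rat, and its part in the Steap4 level was not tested.

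Hoxb13, a homeobox factor of the caudal body axis that marks prostate epithelium, gave -0.20, -0.67, -0.55 and -0.46 in telmisartan rats, against -0.78, -0.66, -0.43 and -0.48 in control rats. Pmepa1, a membrane adaptor that recruits ubiquitin ligases of the Nedd4 family and damps transforming growth factor beta signalling, gave -0.26, 0.66, 0.08 and -0.16 in telmisartan rats, against 0.29, 0.39, 0.14 and 0.22 in control rats. Both overlapped widely, and Pmepa1 had the widest spread among telmisartan rats, with an SD of 0.41 beside 0.11 in control rats.

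**Figure D2:**
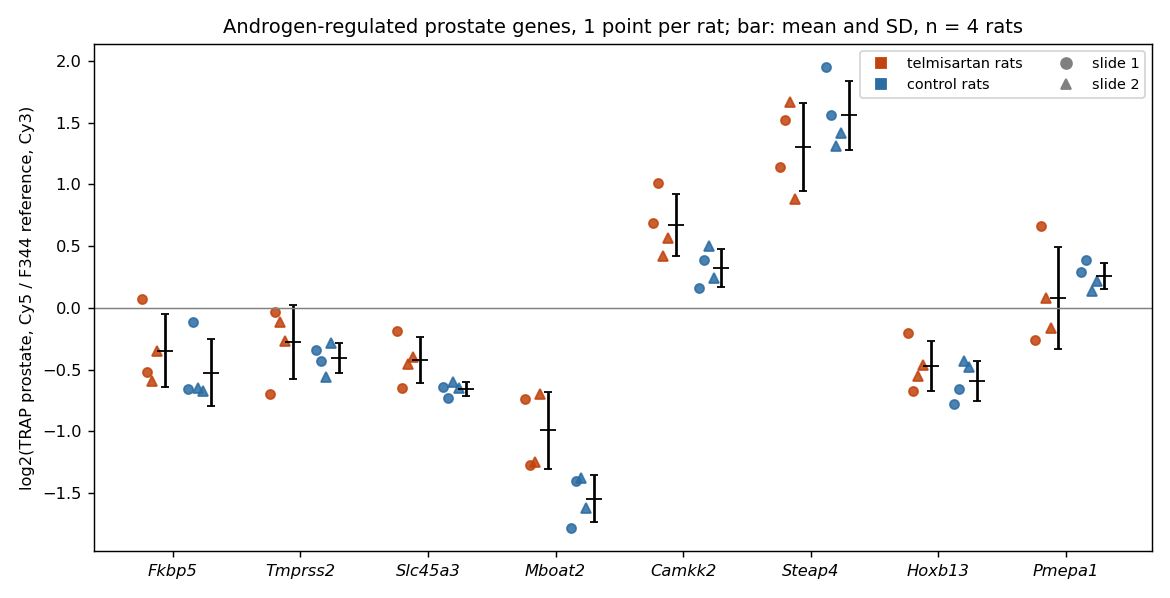
Log2 of TRAP prostate (Cy5) over F344 reference (Cy3) after loess for the 8 genes, 1 point per rat, telmisartan rats left and control rats right of each gene's centre, circles for slide 1 and triangles for slide 2, with mean and SD (n = 4 each). Only for Mboat2 do all telmisartan rats lie above all control rats; with median centring Fkbp5, Tmprss2, Slc45a3 and Hoxb13 average above 0 instead of below it.

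Whether telmisartan moved these genes was tested in the fit across all genes with limma. None of the 8 passed the adjusted threshold of 0.05, as none of the 23174 genes did (0%), and the smallest adjusted p of any gene was 0.288. At an unadjusted p under 0.05 stood 2 of the 8, Mboat2 and Camkk2, both higher in telmisartan rats, where 4.82% of all genes did (1116, of which 635 higher and 481 lower). The unadjusted count was not firm: Camkk2 had an unadjusted p of 0.0523 to 0.0812 without Control 102, Control 106, Telmisartan 302 or Telmisartan 303, 0.0529 with no background correction and 0.0702 in the scanner's ratio. Tmprss2 passed 0.05 without Telmisartan 302 (unadjusted p = 0.0387), and Slc45a3 and Pmepa1 passed it without Telmisartan 303 (0.0168 and 0.0135). With all 8 rats Slc45a3 also passed it under median centring (0.017), in the Cy5 channel alone (0.0199) and with no background correction (0.0371). The mean of its probes passed too (0.00698). Groups without overlap were seen for 1 of the 8, against 2.73% of all genes (632). Of the 8 genes 6 were higher and 2 lower in telmisartan rats, with a median difference of 0.15, beside 0 over all genes tested.

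Mboat2 showed the largest difference of the 8: -0.99 ± 0.31 in telmisartan rats and -1.55 ± 0.19 in control rats (SD, n = 4 each), a difference of 0.56 (SE 0.16, 95% interval 0.19 to 0.92) or 1.47-fold. Its unadjusted p was 0.00692, which ranked 166 of all genes, and its limma adjusted p of 0.934 did not pass. It was 0.58 on slide 1 alone (unadjusted p = 0.0634) and 0.53 on slide 2 alone. With any 1 rat left out it was 0.46 to 0.65. Without Telmisartan 302 and Control 103, the rats with the lowest immune marker means, it was 0.52, an alternative chosen after seeing the data.

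Camkk2 averaged 0.67 ± 0.25 in telmisartan rats and 0.32 ± 0.15 in control rats (SD, n = 4 each), a difference of 0.35 (SE 0.14, 95% interval 0.04 to 0.66) with a limma adjusted p of 0.982. Slide 1 alone gave 0.58 and slide 2 alone 0.13. Both groups were measured against a reference signal that was not well above background, and the difference was 0.22 with no background correction and 0.75 in the scanner's ratio.

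The other 6 differences had 95% intervals that included 0. For Slc45a3 the difference was 0.23 (95% interval -0.02 to 0.48, limma adjusted p = 0.982), and with the mean of its probes it was 0.31 at an unadjusted p of 0.00698. For Fkbp5 it was 0.18 (-0.22 to 0.57), for Tmprss2 0.12 (-0.21 to 0.45) and for Hoxb13 0.12 (-0.17 to 0.40). Steap4 and Pmepa1 ran the other way, at -0.26 (-0.69 to 0.18) and -0.18 (-0.59 to 0.24). The size for Pmepa1 moved with the processing, to -0.52 in the scanner's ratio and -0.46 in the Cy5 channel alone. Its reference signal also differed between the groups. After loess and Aquantile scaling, Cy3 averaged 7.75 on telmisartan and 7.95 on control arrays, and Cy5 7.83 and 8.2. Without both Telmisartan 302 and Control 103 the difference of Pmepa1 was -0.02, and that of Hoxb13 rounded to 0. With 4 rats a group, the intervals of Fkbp5 and Tmprss2 reached up to 0.57 and 0.45 on the log2 scale, so differences up to that size lay within them. Single rats moved most of these differences. Fkbp5 ranged from 0.04 without Telmisartan 302 to 0.31 without Control 103, and Tmprss2 from 0.04 without Telmisartan 303 to 0.26 without Telmisartan 302. Slc45a3 ranged from 0.15 without Telmisartan 302 to 0.31 without Telmisartan 303, and Hoxb13 from 0.03 without Telmisartan 302 to 0.18 without Telmisartan 303. For Steap4 the range was -0.38 without Telmisartan 305 to -0.12 without Telmisartan 306, and for Pmepa1 -0.37 without Telmisartan 303 to -0.06 without Telmisartan 302. No sign turned, and each size depended on the rats included. The sign differed between slides for Hoxb13 alone of the 8 genes, with 0.29 on slide 1 and -0.05 on slide 2, while the size differed for others, such as Steap4 (-0.43 and -0.09) and Tmprss2 (0.02 and 0.23).

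**Figure D3:**
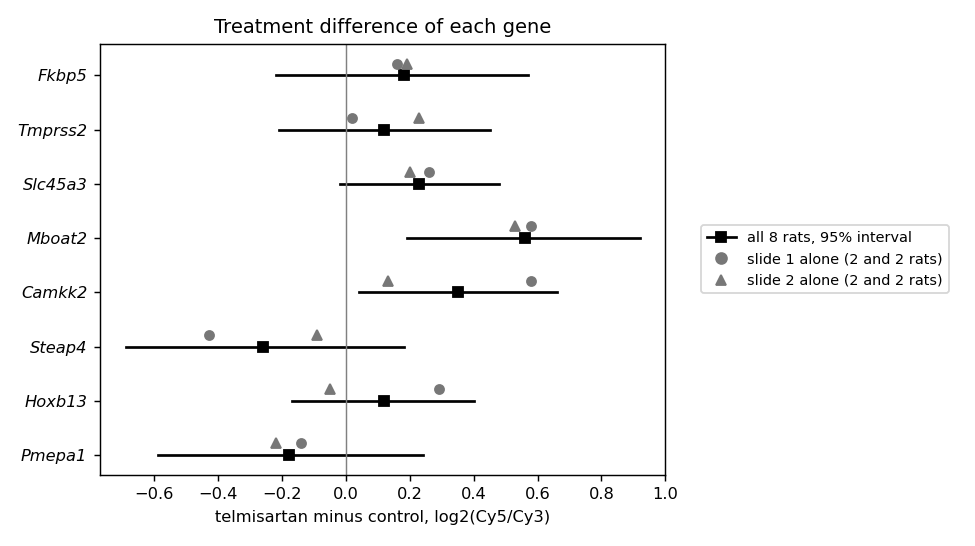
Telmisartan minus control on the log2(Cy5/Cy3) scale for each gene, with the 95% interval of the fit over 8 rats (squares and lines) and the difference within each slide (grey circles and triangles, 2 telmisartan and 2 control rats each). The intervals of Mboat2 and Camkk2 lie above 0, none passed the adjusted threshold, and Hoxb13 changes sign between slides.

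Of the 8 genes 4 were read by several probes, which show how far the values depend on the probe. The treatment difference of Mboat2 was 0.56 and 0.51 on its probes, of Slc45a3 0.23 and 0.38, and of Steap4 -0.26 and -0.31. Levels over the reference differed more between probes of Fkbp5, from -0.96 to -0.43, than the treatment moved any of them. Probes of 1 gene share the rats and the RNA and are not replicates.

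**Figure D4:**
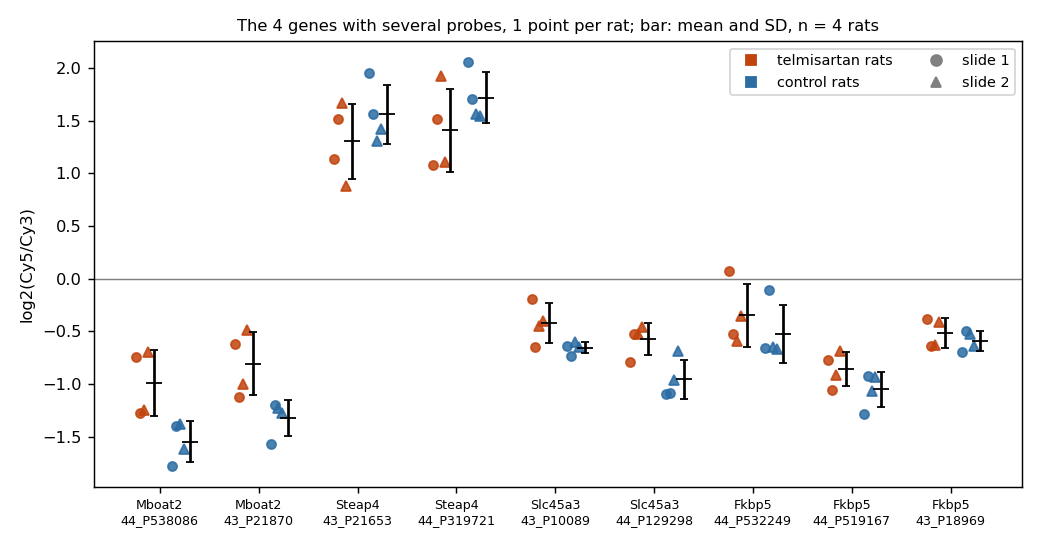
Log2(Cy5/Cy3) after loess by rat for each probe of Mboat2, Steap4, Slc45a3 and Fkbp5, brighter probe first, telmisartan rats left and control rats right, with mean and SD (n = 4 each). Both Mboat2 probes keep the groups apart and the probes of the other genes do not; the levels of the brightest Slc45a3 and Fkbp5 probes change sign with median centring.

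Chaperones and cofactors of steroid receptors gave a context for the 8 genes. Foxa1, which opens chromatin for other transcription factors, averaged 1.17 ± 0.15 in telmisartan rats and 1.00 ± 0.11 in control rats (SD, n = 4 each). Nr3c1, the glucocorticoid receptor, averaged 0.34 in telmisartan rats and 0.50 in control rats after loess. Over the 8 rats Nr3c1 averaged 0.42 after loess and 1.7 with median centring. Of 21 measured chaperones and cofactors, 0 passed the adjusted threshold and 0 had an unadjusted p under 0.05, and their median over the reference was 0.03 after loess and 1.18 with median centring. Dnaja1, a cochaperone of heat shock proteins, was the lowest of them at -1.41 after loess (0.11 with median centring) and Foxa1 the highest at 1.09 (2.31).

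Among 38 measured other androgen response genes, levels over the reference spread far in both directions. After loess 18 of them lay above the reference in all 8 rats and 7 below it, with a median of 0.33. With median centring 31 lay above and 3 below, with a median of 1.17. The filter asked for Cy5 signal alone, so genes with a dim reference could count as above it, while genes with a dim Cy5 were left out. Elk4 was among those above after loess that had a Cy3 signal well above background on 0 of 8 arrays. Azgp1, a secreted lipid-mobilising glycoprotein, averaged 3.99, and Sat1, which acetylates spermidine and spermine, averaged 2.02. Sms, which makes spermine, averaged -1.89. These 3 kept their sign with median centring, at 5.23, 3.39 and -0.60. None of the 38 passed the adjusted threshold, 1 had an unadjusted p under 0.05 (Elk4, an ETS factor, with a difference of 0.36 against a Cy3 signal well above background on 0 of 8 arrays), and their median difference was -0.05. Glucocorticoid response genes, of which 10 were measured, had a median over the reference of 0.11 after loess and 1.32 with median centring. Their median difference was -0.05, and Zbtb16, a zinc finger repressor, had the smallest unadjusted p of them at 0.0243 with a difference of 0.37.

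After loess, secretory products of the ventral prostate, which depend on androgen in the normal gland, lay much farther from the reference than the 8 genes. Andpro averaged -9.03, Msmb -6.64, Klk1 -6.12 and Pbsn, the gene of probasin, -2.60, whereas Azgp1 was at 3.99. With median centring the median of the 6 secretory genes was -4.93, and the same 5 of them lay below the reference in all 8 rats. Pbsn was then at -1.17, nearer the reference than Steap4 at 2.38. The level of the 8 genes spanned -1.27 to 1.43 after loess and -0.02 to 2.38 with median centring. No test was made of this spread, since the lists were chosen with earlier results known.

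**Figure D5:**
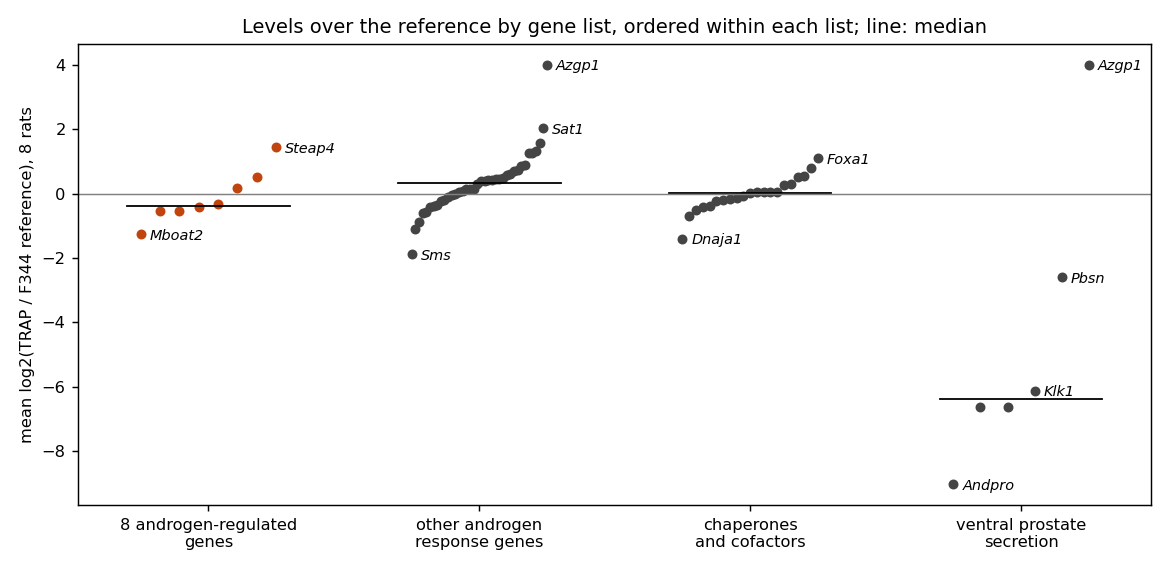
Mean log2(Cy5/Cy3) over the 8 rats after loess for the 8 genes, other androgen response genes, chaperones and cofactors, and ventral prostate secretory genes, 1 point per gene, with a line at each median. The 8 genes lie between -1.27 and 1.43, Sms is at -1.89 and Andpro at -9.03; with median centring the brighter members of the 8 move above 0.

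Relatives of the 8 genes that could be measured showed no adjusted call, and of the listed SLC45 transporters related to Slc45a3 0 of 3 were measured. The 11 other FK506-binding proteins measured had a median of -0.27 over the reference after loess (0.74 with median centring), lowest in Fkbp11 at -1.17 (0.22). Of 7 other membrane-bound O-acyltransferases, Porcn, which acylates Wnt proteins, was lowest at -1.35 after loess (-0.05 with median centring) and Mboat1 highest at 1.52 (2.49). Soat1, which esterifies cholesterol, had an unadjusted p of 0.0334 with a difference of -0.29, and Dgat1, which makes triglyceride, one of 0.0411 with a difference of 0.26. Of the other STEAP metalloreductases, Steap1 averaged 0.71 after loess and 1.33 with median centring, and Steap3 -0.22 and 0.21. Steap2 had a Cy3 signal well above background on 0 of 8 arrays and a Cy5 signal on 1 of 4 telmisartan and 4 of 4 control arrays, so no ratio is given for it.

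Of the CaMKK and AMPK pathway 14 genes were measured, from Camkk1 at -0.54 after loess (0.57 with median centring) to Prkab1, a regulatory subunit of AMPK, at 1.22 (2.64). None of them had an unadjusted p under 0.05, and their median difference was 0.01. Of 9 measured HOX genes and partners 2 did, Hoxa9 and Meis2, a HOX cofactor, both higher in telmisartan rats. Hoxa9 had a difference of 0.32, an unadjusted p of 0.00672 and groups without overlap, with a limma adjusted p of 0.934. For the transforming growth factor beta pathway, on which Pmepa1 acts, 17 genes were measured with a median of 0.39 over the reference after loess and 1.5 with median centring. Skil, a feedback repressor of that pathway, had a difference of -0.50 at an unadjusted p of 0.0657.

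Named genes whose ratio ran most like each of the 8 over the 8 rats were found by Pearson correlation, given as a description. Fkbp5 ran most like Cd99l2 (0.981) and Pspn (0.978). Mboat2 ran most like Hs2st1 (0.966), Steap4 like Loxl2 (0.968), Hoxb13 like Cxadr (0.977), Tmprss2 like Fbxo32 (0.983), Slc45a3 like Ankrd39 (0.977), Camkk2 like Aqp9 (0.948) and Pmepa1 like Cpq (0.941). The first gene given for each of the 8 was the highest among the 12062 tested genes with a symbol, over 8 points that share a reference tissue.

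Promoter windows from RefSeq (GRCr8, 250 bases before to 50 after the start) were at hand for 6 of the 8 genes, all but Camkk2 and Hoxb13. The 6-base core of the steroid hormone response element, TGTTCT or its reverse complement AGAACA, was searched on both strands. It stood in 20.7% of all 33469 windows and in 0 of the 6, and the 2 cores spaced as a full palindromic element stood in 0.0149% of all windows and in 0 of the 6. This says only that these letters are not in these windows.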

How the data were processed

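Per the labels and the submitters' processing notes, the authors read 8 two-channel arrays with Agilent Feature Extraction 9.1. The deposited files give uncorrected spot intensity and local background intensity in each channel, and, per the file headers, a background-subtracted, dye-normalized log10 ratio; the deposited series matrix held the same log10 values to within 0.005. Here intensity was corrected with normexp (offset 50) and loess, control spots at weight 0, in limma 3.58.1 (R 4.3.3). Deposited ratios were turned to log2 for an alternative. Outlier spots were left out, spots of a probe averaged, and a probe was kept where Cy5 cleared the scanner's background test on 4 or more of the 8 arrays (27541 of 41012), the brightest probe standing for a gene. Probes were named through RefSeq (GRCr8): 10735 by accession, 5577 by symbol, 1217 by gene ID and 3730 by older symbol, with 19753 kept as in the files.

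Groups were compared with lmFit and eBayes, two-sided, Benjamini-Hochberg over all genes. The fit was also run on simulated data, with shifts far larger than any treatment difference of the 8 genes. That run does not show whether differences of the size seen here could be detected. Named genes were the 8, Foxa1, Nr3c1, the highest, lowest and smallest-p gene of each pathway list, and the 2 most alike of each. Sat1, Dgat1, Steap2, Meis2 and the secretory genes fall outside that rule and were chosen after their values were seen. Some genes that the rule or the lists take are not reported here. The 8 genes and the lists were chosen with earlier results of these data known. The number of arrays limits the precision. Alternatives are given in the closing section.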

Additional observations from a re-analysis of the deposited data

Results flagged for a closer look

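Of 16 groups of 4 rats (8 genes, 2 groups each), 1 held a rat far from the others. Control 103 gave -0.11 on the Fkbp5 probe used, while the other control rats lay between -0.67 and -0.65. The gap was 0.975 of the group's range. Chance sets a rat apart in this way in about 1 of 20 groups. On the 2 dimmer Fkbp5 probes Control 103 was not set apart. It stood at -0.5 and -0.92 there, beside the next control rat at -0.52 and -0.93. Without Control 103 the telmisartan minus control difference of Fkbp5 was 0.31, and without Telmisartan 302 it was 0.04. With both rats left out, an alternative chosen after seeing the data, it was 0.18, as with all 8 rats. None of these passed the adjusted threshold.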

How the results depend on the processing

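The treatment differences, and levels where a setting keeps the ratio of all rats, were recomputed under 15 other settings and with each of the 8 rats left out, and once, chosen after seeing the data, without Telmisartan 302 and Control 103. No member passed the adjusted threshold under any of them. Across all genes 0 passed, except 1 accession-named transcript without Control 102 and another without Telmisartan 303, so the count over left-out rats was 0 to 1. Genes at an unadjusted p under 0.05 numbered 1116, against 1959 with no filter on dim probes, 466 on slide 1 alone, 2596 with array weights, 2202 without Telmisartan 302 and Control 103, and 665 to 2020 over left-out rats. With median centring 0 members lay below the reference in every rat and 6 above, and Fkbp5, Tmprss2, Slc45a3 and Hoxb13 turned to 1.03, 1.04, 0.88 and 0.77. Hoxb13's treatment difference turned to -0.05 on slide 2 alone, where fewer rats were used, and the cause was not tested. The other members kept their direction, and Mboat2 ranged from 0.46 to 0.65 over all settings and left-out rats. No paired analysis was possible because the groups share no rat number. Depth is not defined for arrays; Camkk2 was limited by a reference signal that was not well above background.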
